A study of Homo sapiens with 8 samples.

Results

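The microRNA (miRNA) hairpin miR-92b gives a 5p strand and a 3p strand, and the data describe how much of each was present, and in what proportion, when HCT116 cells carried 1 of 4 forms of DICER. The members are the names hsa-miR-92b-5p and hsa-miR-92b-3p, 2 of the 1818 miRNA names listed in any library. Both names were listed in all 8 libraries and both were among the 625 names kept for testing. The hairpin was selected on its levels and its 5p to 3p ratio in these same libraries. Those values are therefore given as a description with standard errors, and no p-value is given for them. Statements that they were or were not among the called names or pairs only complete the counts over all features.

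HCT116 is a human colorectal carcinoma cell line of epithelial origin. The compared libraries are DICER R1855L rescue, DICER R821H rescue and DICER R1003Q rescue, each with 2 libraries, and DICER wild-type (WT) rescue, also with 2. All groups share the cell line and the word rescue in their titles. How the rescues were made, and whether each was a clone or a pool, is not given in the sources used here. Small RNA was sequenced by AQ-seq, a ligation method built to lower the bias between small RNA ends.

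DICER, a ribonuclease of the RNase III class, cuts the loop from a precursor hairpin and leaves a duplex of a 5p and a 3p strand. One strand of the duplex, the guide, is kept in an Argonaute protein and the other, the passenger, is mostly lost. For miR-92b the 3p strand is the guide in most tissues. miR-92b is known from neural progenitors and from several carcinomas, and its 3p strand shares a seed, the bases that pair with target mRNAs, with miR-25, miR-32, miR-92a, miR-363 and miR-367. Residue R1855 lies in the double-stranded RNA-binding domain at the carboxyl end of DICER, and R821 and R1003 lie in its platform and PAZ region, which holds the ends of the precursor.

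The sequence of the hairpin is shown because both strands counted here come from it. It is taken from RefSeq (GRCh38.p14), plus strand of chromosome 1, chr1:155195177-155195272, and reads 5′ to 3′ with the 2 mature strands in capitals.
MIR92B hairpin: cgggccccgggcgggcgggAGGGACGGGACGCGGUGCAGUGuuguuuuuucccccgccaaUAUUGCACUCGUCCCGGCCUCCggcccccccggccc
The hairpin has 96 bases, of which the 5p strand takes bases 20 to 41 and the 3p strand bases 61 to 82, with 19 bases between them. From the first 5p base to the last 3p base it spans 63 bases, which RNAfold predicted to form 22 base pairs at -32.3 kcal/mol with 2 unpaired bases at the 3′ end. In GENCODE release 29 (GRCh38) the hairpin lies inside an exon of the antisense RNA AC234582.1 (155195004 to 155205495). The nearest protein-coding gene is THBS3, on the minus strand and 316 bases away.

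The mature strands are shown with their seeds, bases 2 to 8, in capitals, together with the guides that share the 3p seed, as RefSeq gives them.
miR-92b-5p: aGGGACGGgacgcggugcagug
miR-92b-3p: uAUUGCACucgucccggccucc
miR-92a-3p: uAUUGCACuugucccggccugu
miR-25-3p: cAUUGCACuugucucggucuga
miR-32-5p: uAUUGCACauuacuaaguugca
miR-363-3p: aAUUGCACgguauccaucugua
miR-367-3p: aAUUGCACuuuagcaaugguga
Seed AUUGCAC of the 3p strand occurs in these 5 other human mature miRNAs and in none besides them among the 2370 names of the RefSeq table. Seed GGGACGG of the 5p strand occurs in no other name of that table. Counting from 1 at the 5′ end of miR-92b-3p, miR-92a-3p differs from it by C10U, C21G and C22U. The counts of both miR-92b strands were whole numbers in all 8 libraries, whereas miR-92a-3p, which 2 loci encode, carried fractions of a read in 5 of 8 libraries.

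The strands of miR-92b differ in base composition. G and C make up 72.7% of the 5p strand and 63.6% of the 3p strand, against medians of 47.8% and 50% over the 143 of 174 tested strand pairs whose 2 mature sequences both matched RefSeq. Only 10 of these 143 pairs, miR-92b included, had a 5p strand with as high a GC share. The 5p strand starts with A and has 3 G or C in its first 4 bases, whereas the 3p strand starts with U and has 0. Of the 15 pairs with A at the 5p start and U at the 3p start, 11 had more 3p than 5p reads in WT. This compares with 54 of the 143 pairs, and miR-92b is included in each of these counts. Which of the 2 start bases goes with 3p dominance was not tested.

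Library totals lay between 462805 and 4269231 reads, and a count of 0 allows 3 reads, between 0.703 and 6.48 CPM (reads scaled to a common library size), here by the raw library total. WT, R1855L and R821H each had 1 deep library (2241881 reads or more) and 1 shallow one, and both R1003Q libraries were shallow (1143373 and 675934 reads). All 5 listed epithelial markers of the miR-200 family were present, with a summed level of 2669 to 3554 CPM over the 8 libraries (CPM after TMM scaling, a scaling to a common composition, as for all levels below). Of the neuronal markers, miR-124-3p had at most 1.67 reads in a library, while miR-9-5p had 246 to 3329 reads. The blood list summed to 463 to 622 CPM, the muscle list to 3.64 to 12.1 CPM, the liver miRNA miR-122-5p to 67.4 to 118 CPM and the pluripotency list to at most 1.84 CPM, with miR-367-3p at 0 reads in all 8.

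miR-92b was a 3p-dominant hairpin in every library. In WT the 3p strand had 1080 and 2619 reads (replicates 1 and 2) and the 5p strand 50 and 112 reads, so that 21.6 and 23.4 reads of 3p stood beside each read of 5p. The WT log2 ratio of 5p to 3p reads, with 0.5 added to each count, was -4.48 ± 0.09 (SD, n = 2). Of the 174 pairs with at least 80 reads per strand summed over the 8 libraries, 10 had a lower WT ratio and 67 had more 3p than 5p reads. miR-92b-3p stood at rank 103 and 118 by reads in WT, and miR-92b-5p at rank 355 and 390.

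The 5p share of miR-92b reads lay above WT in R1003Q, below it in R1855L and overlapping it in R821H. In R1855L it was 3.07% (exact Clopper-Pearson 95% interval 2.34 to 3.95) in replicate 1 and 1.91% (1.10 to 3.09) in replicate 2. In R821H it was 4.17% (3.36 to 5.11) and 5.66% (4.11 to 7.57). In R1003Q it was 9.66% (7.60 to 12.04) and 9.32% (6.88 to 12.3), and in WT 4.42% (3.30 to 5.79) and 4.10% (3.39 to 4.91). Both R1003Q intervals lie above both WT intervals, whereas the interval of R1855L replicate 1 overlaps those of WT. How often the intervals of other pairs separate in this way was not counted. Their separation is therefore a description and not a test. The intervals cover counting error only and treat each read as independent. No molecular identifiers are described for these reads, so copies of 1 molecule could make the intervals too narrow.

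**Figure D1:**
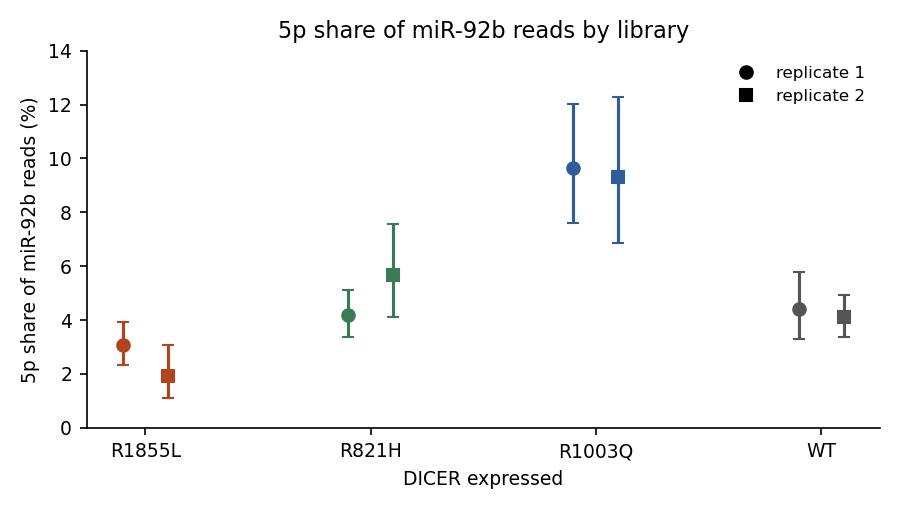
Share of miR-92b reads that come from the 5p strand (%, vertical axis) in each library, by the DICER expressed (horizontal axis), with exact 95% intervals. The WT libraries are at 4.42% and 4.10%. The R1003Q libraries, at 9.66% and 9.32%, lie above both of them, and the R1855L libraries, at 3.07% and 1.91%, lie below both.

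In R1003Q the miR-92b ratio lay farther toward the 5p strand than in WT. The log2 ratio was -3.22 and -3.27 in R1003Q (replicates 1 and 2) against -4.42 and -4.54 in WT. Both R1003Q libraries were above both WT libraries, as in 27.6% of the 174 tested pairs. The difference was 1.24 (SE 0.37), or 2.36-fold, the second highest of the 174 pairs, whose median was 0.06. limma called 0 of 174 ratios in R1003Q (0%), with 8 at an unadjusted p under 0.05, so miR-92b was not called either. Against WT replicate 1, the WT library of like depth, the R1003Q libraries differed by 1.20 and 1.15.

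In level, the 5p strand lay above WT in R1003Q and the 3p strand below it. miR-92b-5p had 70 and 45 reads in R1003Q, which is 62.6 and 64.0 CPM, against 38.0 and 29.1 CPM in WT. Both R1003Q libraries were above both WT libraries, as in 22.9% of the 625 tested names. The fitted log2 fold change was 0.92 (SE 0.34), at rank 21 from the top of 625. It was 0.64 without WT replicate 2 and 0.67 with the library total as a covariate. miR-92b-3p was at 586 and 623 CPM in R1003Q against 820 and 681 CPM in WT, with a log2 fold change of -0.31 (SE 0.29). Its R1003Q libraries were below both WT libraries, as in 17.8% of names, and the value was -0.17 without WT replicate 1, -0.54 without WT replicate 2 and -0.59 with the library total as a covariate. Of the 625 names, edgeR called 0 in R1003Q (0%) and so did DESeq2, and 31 had an unadjusted edgeR p under 0.05. The epithelial list, with all 5 markers present, summed to 2669 to 2743 CPM in R1003Q against 2888 to 3554 CPM in WT. The blood list summed to 466 to 503 CPM in R1003Q against 529 to 593 CPM in WT, and miR-122-5p was at 95.7 to 109 CPM in R1003Q against 67.4 to 86.6 CPM in WT. R1003Q thus lay below WT in the epithelial and blood sums, also per raw library total. A lower sum does not mean that each member was lower, and the members are not given singly here. It lay above WT in miR-122-5p after TMM scaling only. Per raw library total miR-122-5p was at 93.6 to 114 CPM in R1003Q, overlapping 60.7 to 100 CPM in WT. The part of these markers in the levels of miR-92b was not tested.

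**Figure D2:**
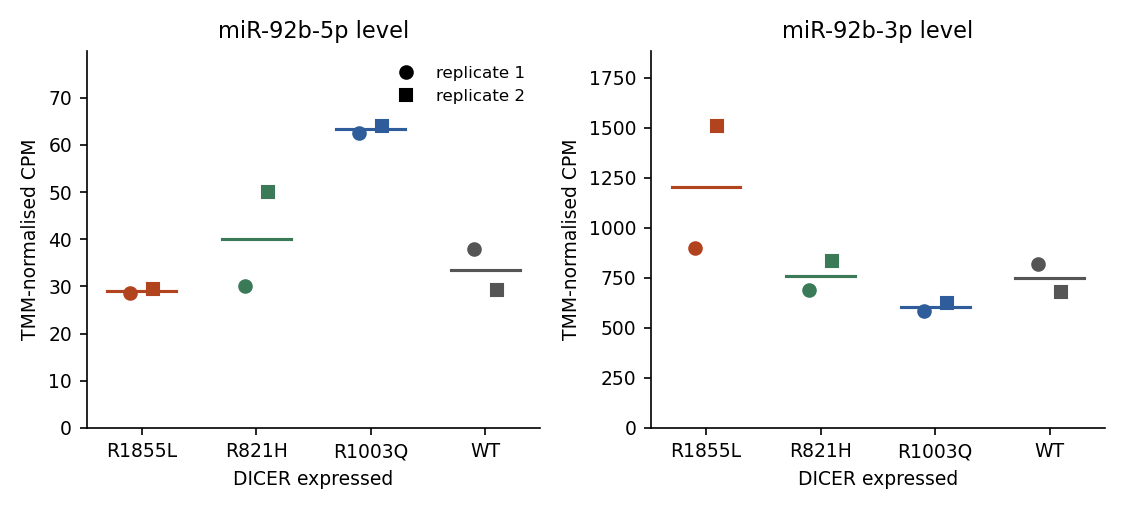
Levels of miR-92b-5p (left) and miR-92b-3p (right) in TMM-normalised CPM (vertical axes, from 0) by the DICER expressed, with a line at each group mean. By group mean the 5p strand is highest in R1003Q, with libraries at 62.6 and 64.0 CPM. The 3p strand is highest by group mean in R1855L, with libraries at 901 and 1509 CPM.

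In R1855L the ratio lay on the other side of WT, farther toward the 3p strand. The log2 ratio was -4.97 and -5.64 in R1855L against -4.42 and -4.54 in WT. Both R1855L libraries were below both WT libraries, as in 10.9% of the 174 pairs. The difference was -0.82 (SE 0.37), the 14th lowest of 174, and the median over all pairs was 0.23. It was -0.49 without R1855L replicate 2, the shallowest library with 16 reads of the 5p strand, and -1.16 without R1855L replicate 1. Between the deep libraries it was -0.43 and between the shallow libraries -1.22. limma called 13 of 174 ratios in R1855L (7.47%), 10 toward 5p and 3 toward 3p (5.75% and 1.72%), and miR-92b was not among them.

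In level, the 3p strand lay above WT in R1855L and the 5p strand overlapped it. miR-92b-3p was at 901 and 1509 CPM in R1855L against 820 and 681 CPM in WT, with both R1855L libraries above both WT libraries, as in 21.1% of the 625 names. Its log2 fold change was 0.68 (SE 0.29), at rank 93 from the top. That value was 0.24 without R1855L replicate 2, 0.45 without WT replicate 2 and 0.41 with the library total as a covariate. miR-92b-5p was at 28.5 and 29.4 CPM in R1855L, overlapping 38.0 and 29.1 CPM in WT, with a log2 fold change of -0.20 (SE 0.35). edgeR called 36 of 625 names in R1855L (5.76%), 2 higher and 34 lower, and neither strand of miR-92b was among them. The summed neuronal markers, nearly all miR-9-5p, were at 454 to 1186 CPM in R1855L against 523 to 866 CPM in WT, with 454 CPM in the shallow R1855L library that had the most miR-92b-3p. The muscle list summed to 9.20 to 11.8 CPM in R1855L against 3.64 to 7.60 CPM in WT. These sums rest on few reads, since 3 reads are 6.48 CPM by raw total in R1855L replicate 2. The part of both marker lists in the level of miR-92b was not tested.

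In R821H neither strand nor the ratio was separated from WT. The log2 ratio was -4.51 and -4.04 in R821H against -4.42 and -4.54 in WT, and the groups overlapped. The difference was 0.20 (SE 0.37), and it was -0.03 without R821H replicate 2 and 0.44 without R821H replicate 1. miR-92b-5p was at 30.01 and 50.02 CPM in R821H against 38.0 and 29.1 CPM in WT (log2 fold change 0.23, SE 0.34), and miR-92b-3p at 690 and 834 CPM against 820 and 681 CPM (0.02, SE 0.29). Both strands overlapped WT. limma called 0 of 174 ratios (0%), with 3 at an unadjusted p under 0.05. Of the 625 names, edgeR called 0 (0%) and DESeq2 called 1, and 20 had an unadjusted edgeR p under 0.05. The epithelial and blood sums of R821H overlapped those of WT after TMM scaling. Per raw library total they were at 2767 to 2992 and 462 to 533 CPM in R821H, below 3201 to 3341 and 534 to 613 CPM in WT, and their part in the levels of miR-92b was not tested.

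**Figure D3:**
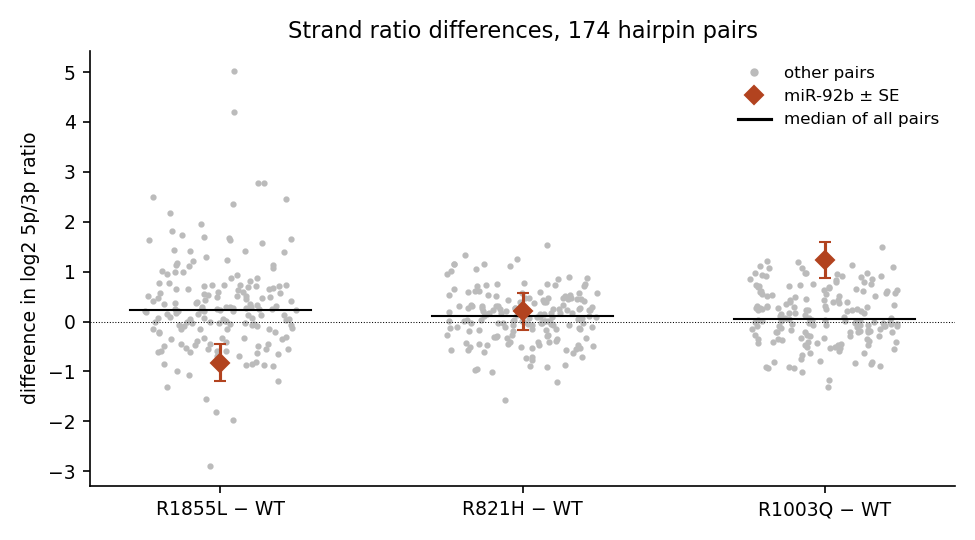
Difference in log2 5p/3p ratio (vertical axis) between each mutant and WT for the 174 tested hairpin pairs, with miR-92b as a diamond with its SE and a line at the median of all pairs; the 3 comparisons use the same WT libraries. miR-92b lies low in R1855L (-0.82), near the median in R821H (0.20) and second from the top in R1003Q (1.24).

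Ordered by ratio, the groups ran from R1003Q through R821H and WT to R1855L. This is the order of the group means, and R821H and WT overlapped. The share of all pairs or names that separate between 2 mutants was not counted, so separations between mutants are not read here. R1003Q exceeded R1855L by 2.06 (SE 0.37) log2 units, or 4.17-fold, which was the highest difference of the 174 pairs. That difference was 1.73 without R1855L replicate 2 and 2.39 without R1855L replicate 1. R821H exceeded R1855L by 1.02 (SE 0.37), with 0.69 without R1855L replicate 2, and R1003Q exceeded R821H by 1.04 (SE 0.37). Ordered by level, miR-92b-5p ran in the same sequence, with overlap of R821H with WT and of WT with R1855L. miR-92b-3p ran from R1855L through R821H and WT to R1003Q, with overlap of R821H and WT.

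The summed level of both strands, which the guide dominates, averaged 1234 ± 430 CPM in R1855L, 802 ± 116 CPM in R821H, 667 ± 27.2 CPM in R1003Q and 784 ± 105 CPM in WT (SD, n = 2 each). Across the 8 libraries the log2 levels of the 5p and the 3p strand had a Pearson r of -0.53. The libraries share their scaling and differ in depth, so this value is a description. The log2 ratio varied within groups by a pooled SD of 0.29, against a median of 0.46 over the 174 pairs. Counting error alone gives a standard error of 0.14 to 0.36 for the ratio in a single library.

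Across the 174 pairs, 3 (1.72%) had both R1855L libraries below and both R1003Q libraries above both WT libraries. These were miR-92b, miR-34a and miR-197. The arrangement was taken from the miR-92b values, so its count is a description. Singly, 10.9% of pairs lay below WT in R1855L and 27.6% lay above WT in R1003Q. The opposite arrangement occurred in 4 pairs (2.3%). Both comparisons use the same WT libraries. The miR-34a ratio, from a hairpin whose guide is the p53-induced 5p strand, was also the one most like that of miR-92b over the 8 libraries (Pearson r of 0.90, highest of 109 pairs with at least 400 reads per strand summed over the 8 libraries, median -0.03). Its log2 ratio was 4.33 and 4.38 in R1855L, 5.12 and 6.13 in R821H, 6.05 and 6.23 in R1003Q, and 5.42 and 4.67 in WT. The next in likeness were miR-576 (0.77), miR-139 (0.75), miR-197 (0.74) and miR-301a (0.69). Of these, miR-576 had a ratio difference of 0.96 in R1003Q and 0.04 in R1855L, and miR-139 had -1.82 in R1855L and -0.02 in R1003Q.

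By level, miR-92b-5p was most like miR-339-5p (r of 0.93 over 8 libraries, highest of 338 names with at least 50 CPM). That miRNA had 1068 and 1279 CPM in R1855L, 1327 and 1478 CPM in R821H, 1814 and 1735 CPM in R1003Q, and 1249 and 1127 CPM in WT. It was followed by miR-139-5p (0.91), miR-324-3p (0.81), miR-3615 (0.81) and miR-30c-5p (0.81). miR-92b-3p was most like let-7b-3p (0.95), the passenger of a let-7 hairpin, at 145 and 213 CPM in R1855L, 89.4 and 110 CPM in R821H, 90.3 and 98.1 CPM in R1003Q, and 114 and 113 CPM in WT. It was followed by miR-7976 (0.90), miR-25-5p (0.89), miR-197-3p (0.88) and miR-126-5p (0.85). The medians over all 338 names were -0.06 for the 5p and 0.01 for the 3p strand.

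Hairpins with a WT ratio close to that of miR-92b were set beside it, since they have a like strand balance. The 3 pairs next below it, miR-342, miR-615 and miR-95, had differences of 0.22, 0.37 and 1.14 in R1855L and of 0.95, -0.06 and 0.91 in R1003Q. The 3 next above it, miR-27a, miR-19a and miR-365a, had 0.42, 0.43 and 0.66 in R1855L and 0.36, 0.43 and 1.13 in R1003Q. None of these 6 was lower than WT in R1855L, where 10.9% of the 174 pairs had both libraries below both WT libraries. In R1003Q both libraries of miR-342, miR-95, miR-27a and miR-365a lay above both WT libraries, as in 27.6% of the 174 pairs. With only 6 pairs, these counts cannot set miR-92b apart from hairpins of like balance.

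Of the 11 listed names from relatives with the same guide seed, 6 were tested, and the other 5 had at most 3 reads in any library. In R1855L 1 of the 6 fell and 0 rose, against 5.44% of all names lower and 0.32% higher, and their median log2 fold change was 0.01 against 0.13 over all names. In R821H and R1003Q 0 of 6 were called (0% of all names in both), with medians of -0.16 and -0.37 against 0.04 and 0.06 over all names. The name that fell was miR-25-3p, the guide of a growth-promoting cluster hosted by MCM7. It was at 1446 ± 31.6 CPM in R1855L against 5462 ± 108 CPM in WT (SD, n = 2 each), a log2 difference of -1.92 with SE 0.23 (adjusted p by edgeR 0.00513).

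miR-92a-3p, the relative nearest in sequence, averaged 12627 ± 3194 CPM in R1855L, 10110 ± 2094 CPM in R821H, 9363 ± 519 CPM in R1003Q and 8262 ± 854 CPM in WT (SD, n = 2 each). Its log2 fold change was 0.61 (SE 0.28) in R1855L, beside 0.68 for miR-92b-3p, and 0.18 (SE 0.28) in R1003Q, beside -0.31 for miR-92b-3p, and none of these was called. miR-32-5p, a guide from the 5p side of its hairpin, had -0.24 (SE 0.26) in R1855L, -0.31 (SE 0.26) in R821H and -0.05 (SE 0.26) in R1003Q.

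The part of miR-92b-3p in the reads of its seed family was small. It was 6.64% and 7.92% in R1855L, 4.75% and 4.61% in R821H, 3.99% and 4.10% in R1003Q, and 4.93% and 4.62% in WT. Both R1855L libraries were above and both R1003Q libraries were below all libraries of WT. miR-25-3p took 10.5% and 7.71% of the family in R1855L, compared with 33.3% and 36.5% in WT, and all these shares are parts of 1 total. The number of miR-92a-3p reads per miR-92b-3p read, which miR-25-3p does not enter, was 11.5 and 9.87 in R1855L, 12.5 and 13.9 in R821H, 15.4 and 15.6 in R1003Q, and 10.8 and 11.2 in WT. By that measure R1003Q and R821H were above both WT libraries and R1855L lay on both sides of them. How often other names separate from WT in such shares or read ratios was not counted, so these separations are descriptions only.

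**Figure D4:**
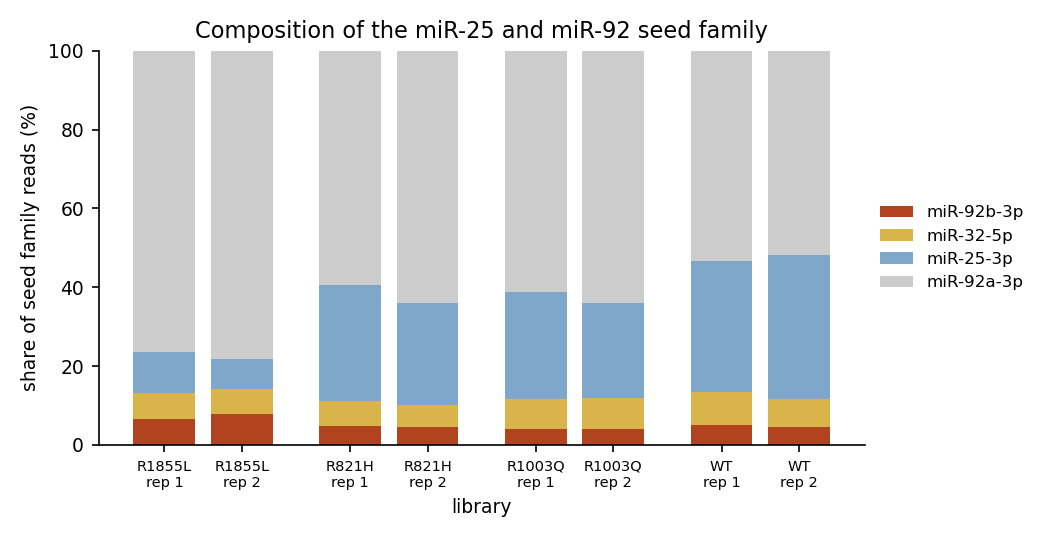
Share of the reads of the seed family of miR-25 and miR-92 (%, vertical axis) taken by miR-92b-3p, miR-32-5p, miR-25-3p and miR-92a-3p in each library; miR-363-3p, with at most 3 reads, is not visible. miR-92b-3p takes 6.64% and 7.92% in R1855L and 4.93% and 4.62% in WT, beside a miR-25-3p share that is lower in R1855L.

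Of the 2 relatives with a tested strand ratio, miR-25 was called in R1855L, in the opposite direction to the miR-92b difference, and miR-32 in no mutant. The miR-25 ratio was -2.62 and -2.40 in R1855L against -5.40 and -5.15 in WT, a difference of 2.77 (SE 0.34, limma adjusted p = 0.00179), toward 5p, whereas the miR-92b difference was -0.82. In R1003Q the miR-25 difference was 0.23 (SE 0.34) and was not called, beside 1.24 for miR-92b. The log2 ratio of miR-92a-1-5p to miR-92a-3p was -6.97 and -7.79 in R1855L and -8.15 and -7.27 in R1003Q, both overlapping -7.43 and -6.71 in WT. It compares the 5p strand of 1 locus with a 3p strand from 2 loci, since miR-92a-2-5p had no reads. The miR-32 ratio differed by 0.29 (SE 0.74) in R1855L and 0.74 (SE 0.74) in R1003Q and was not called. Differences between hairpins in these shifts were not tested.

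**Figure D5:**
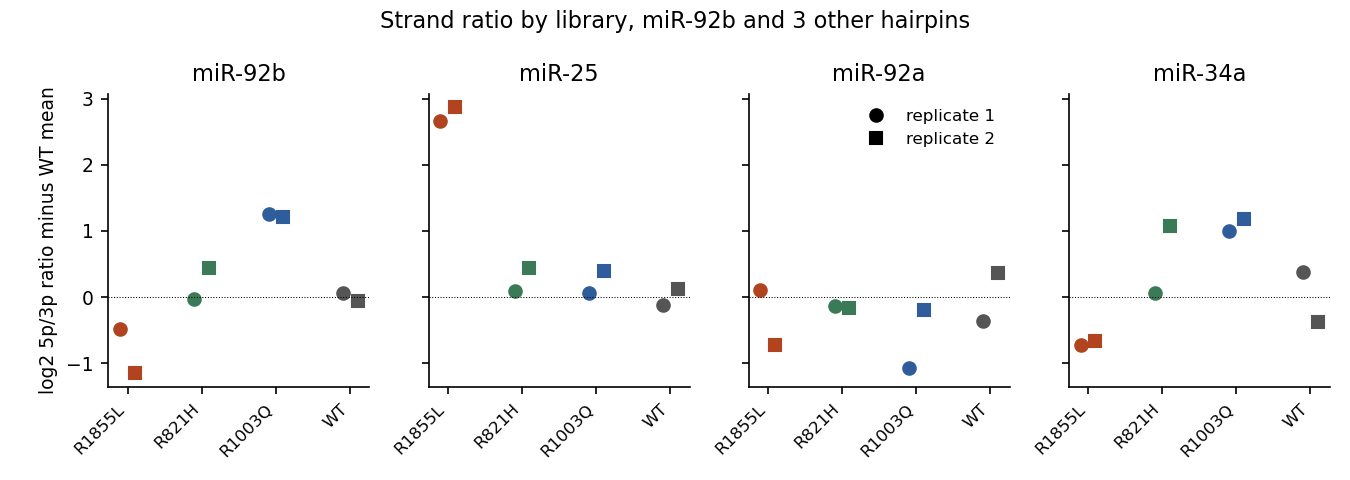
Log2 5p/3p ratio minus the WT mean (vertical axis) by library for miR-92b, its relatives miR-25 and miR-92a, and miR-34a, the hairpin with the most similar ratio over the libraries. miR-92b and miR-34a lie below 0 in both R1855L libraries and near or above 1 in both R1003Q libraries, while miR-25 lies above 2 in R1855L.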

How the data were processed

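Mature miRNA reads of 8 HCT116 libraries (4 groups of 2, read from the titles) were analysed. The authors deposited estimated counts per miRNA name, not normalised, with fractions of a read for a few names; names not listed were set to 0. Builds hg38 and mm10, and the tools bedtools, BWA and cutadapt, are listed in the submitters' processing notes without roles. Per the labels' protocols, 100 µg of total RNA entered AQ-seq. The tables hold no read ends, so strand ends are those of RefSeq.

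Rounded counts were fitted with edgeR 4.0.16 (R 4.3.3; filterByExpr, TMM, robust quasi-likelihood, group as the only term, all 8 libraries), and log2 5p/3p ratios (pseudocount 0.5, at least 80 reads per strand summed over the 8 libraries) with limma 3.58.1. Calls used a Benjamini-Hochberg adjusted p under 0.05 over all 625 names or 174 pairs. Both procedures were tested on simulated data. The SE of a fold change is its absolute log2 value over the root of F. DESeq2 1.42.0 was an alternative, and RNAfold 2.7.2 gave the fold. Depth classes were split where log library totals were farthest apart. Nothing in the labels says that replicates were separate cultures; the p-values thus reflect only how these libraries vary, possibly for technical reasons. The 2 libraries of each group differed by more than sampling noise.

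The members, lists, named miRNAs and alternatives were chosen with earlier results of these data known. Named were the members, the seed family with its other strands, the 5 names or pairs most correlated with each strand or the ratio, and the 3 pairs on either side by WT ratio.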

Additional observations from a re-analysis of the deposited data

How the results depend on the processing

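Neither strand of miR-92b and not its ratio was called against WT under any alternative run (DESeq2, other scalings, other filters, only the 4 libraries compared, replicate block, library total covariate, other pseudocount and read minimum, each library left out). The counts of calls did depend on the fit. For R1855L against WT, 36 names were called, 2 higher and 34 lower, with 162 (71 higher, 91 lower) under the log2 library total covariate, 52 (8 and 44) with DESeq2, 19 with a replicate block, 14 with total counts, 2 (miR-331-3p and miR-484, named after their values were seen) in a fit to only the 4 libraries compared, and 15 to 27 with each library left out. The 13 ratios called in R1855L became 42 with the covariate, 4 with only the 4 libraries and 4 to 14 with each library left out. For R821H, DESeq2 called 1 name (miR-185-5p) and the covariate 4 (miR-185-5p, let-7i-3p, miR-374b-5p and miR-6886-5p), and for R1003Q the covariate called 3 ratios (miR-18a, miR-3613 and miR-590), all named after their values were seen. The cause was not tested. Total counts in place of TMM moved the median over all names in R821H to -0.08, against 0.04.

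Same-numbered libraries deviated oppositely in R1855L and WT (r of -0.70 across 625 names) and in R821H and WT (-0.68), and r was 0.09 for R1003Q and WT, 0.57 for R821H and R1855L, 0.02 for R1003Q and R1855L and -0.12 for R1003Q and R821H. Replicate 1 was the shallow library in WT and the deep library in R1855L and R821H. The part of depth in these correlations was not tested. With 2 numbers a group and no batch or day in the labels, the numbers were not taken as pairs. In this balanced design a replicate block cannot move a difference between group means of the ratio, and it changed no call of the miR-92b strands. A crossed pairing, chosen after seeing the data, set the deep libraries of WT, R1855L and R821H together. It gave 68 called names (15 higher, 53 lower) and 23 called ratios in R1855L and 0 of either in the other mutants.

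With each library left out, the ratio difference ranged from -1.16 to -0.49 for R1855L against WT, from 1.73 to 2.39 for R1003Q against R1855L and from 0.69 to 1.36 for R821H against R1855L. The log2 fold change of miR-92b-3p in R1855L ranged from 0.24 to 0.89, that of miR-92b-5p in R1003Q from 0.64 to 1.12 and in R821H from -0.18 to 0.50. The R1003Q ratio difference from WT ranged from 1.18 to 1.30. A filter of 50 CPM removed miR-92b-5p and gave no value for it. The 5p strand rests on 16 to 112 reads per library, and counting error alone comes to as much as 0.36 log2 units in a library.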
